A study of Rattus norvegicus with 12 samples.

Results

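Of the 15920 genes measured by RNA-seq in neonatal rat ventricular myocytes (NRVM), 94 fell strongly when THZ1 was given alone and stayed near their resting level when phenylephrine (PE) was given alone. These 94 THZ1-lowered, PE-neutral genes were chosen by 3 limits on the deposited normalized counts: a mean of at least 20 over the 12 libraries, which 13350 genes met, a ratio of group means of THZ1 over baseline of at most 0.4, and a ratio of PE over baseline between 0.67 and 1.5. The choice rests on the measured values of the baseline, THZ1 and PE libraries, so the fall with THZ1 alone and the small response to PE are properties of the choice, and their values in the libraries used for the choice are given as descriptions that support nothing. The libraries that received both compounds entered it only through the mean over all 12 libraries, and the question followed here is whether the fall holds in them.

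The cells came from heart ventricles of Sprague Dawley pups of 2 to 3 days of age and were kept in serum-free medium before stimulation. The 4 groups, of 3 libraries each, were baseline (vehicle), THZ1 (10 nM), PE (100 µM) and PE + THZ1 at the same doses, for 48 h by the sample labels, whereas 24h stands in the column names of both groups with PE. By the methods of the paper, vehicle or inhibitor was given 3 h before PE. All groups, baseline included, shared pre-plating and exposure to BrdU, steps meant to remove non-myocytes and to inhibit proliferation. Nothing in the labels says that the 3 libraries of a group came from separate cultures, so p-values measure the spread between these libraries, which may be technical.

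THZ1 is a covalent inhibitor of the cyclin-dependent kinases CDK7, CDK12 and CDK13, which phosphorylate the C-terminal domain of RNA polymerase II at initiation and during elongation. The level of a transcript reflects its synthesis and its decay, and short-lived transcripts lose their level sooner than long-lived ones when synthesis slows. PE is an agonist of the α1-adrenergic receptor and is widely used to induce hypertrophic growth, with a broad rise in RNA content, in cultured NRVM.

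The deposited table lists its 15920 genes by Ensembl rat identifier without symbols. The RefSeq gene table (GRCr8) used here has 47357 entries but no Ensembl rat identifiers, so a match by identifier was not possible. For that reason no symbol, function, position or promoter sequence is given for the 94 genes, 4 are given by identifier, and the labelled cell type was not checked here against its marker genes. The libraries held 30458862 to 45885754 reads assigned to genes. Baseline replicate 2 stood apart from the other baseline libraries, with a chi-square per gene of 54.0 and 57.4 against them, while every other pair within a group lay between 2.105 and 8.90. On log2 values it stood less far apart, with r of 0.9917 and 0.9923 against 0.9944 to 0.9955 in the other pairs. Summed normalized counts differed between groups, with 40369779 ± 130940 in PE and 33763048 ± 587361 in PE + THZ1 (SD, n = 3 each), and setting all libraries to equal totals moved the median log2 difference of all tested genes between PE + THZ1 and PE from 0.01 to 0.27. The values below are therefore relative to the authors' size factors, and with whole-culture RNA, fewer cells of a type and less RNA per cell cannot be told apart.

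At baseline the 94 genes covered a wide range of abundance, from a mean of 26.5 to 26495 normalized counts with a median of 252, below the median of 729 of all genes with a mean of at least 20. Of them, 22 lay under 100, 44 between 100 and 1000, and 28 above 1000, 6 of which were above 10000. In 12 of the 94 genes at least 1 library held fewer than 10 reads, the lowest a single library with 1 read, and ratios of these genes carry the widest counting error. The median coefficient of variation of the 94 genes was 10.8% at baseline, 10.2% with THZ1, 7.20% with PE and 11.7% with PE + THZ1, against 7.52%, 4.26%, 4.79% and 4.50% in all genes with a mean of at least 20. This comparison was not matched for abundance, and the share of the spread that comes from lower counts was not tested.

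Scaled to its own baseline mean, the median gene of the set stood at 1.00, 0.967 and 1.02 in the 3 baseline libraries and at 0.324, 0.294 and 0.321 with THZ1 alone. It stood at 1.08, 1.05 and 1.08 with PE, and at 0.343, 0.351 and 0.380 with PE + THZ1. By these medians the PE + THZ1 libraries lay close to the THZ1 libraries and well apart from the PE libraries. All PE + THZ1 medians lay above those of THZ1 alone, whose libraries chose the genes for low values. The medians of PE + THZ1 and PE did not overlap either. Across single genes the ranges of PE + THZ1 and PE did overlap. By group means, PE + THZ1 over baseline reached 0.732 in 1 gene and PE over baseline was as low as 0.683 in another. Together the 94 genes took 0.464% ± 0.0165 of all normalized counts at baseline, 0.163% ± 0.00464 with THZ1, 0.521% ± 0.00838 with PE and 0.182% ± 0.0134 with PE + THZ1 (SD, n = 3 each).

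**Figure D1:**
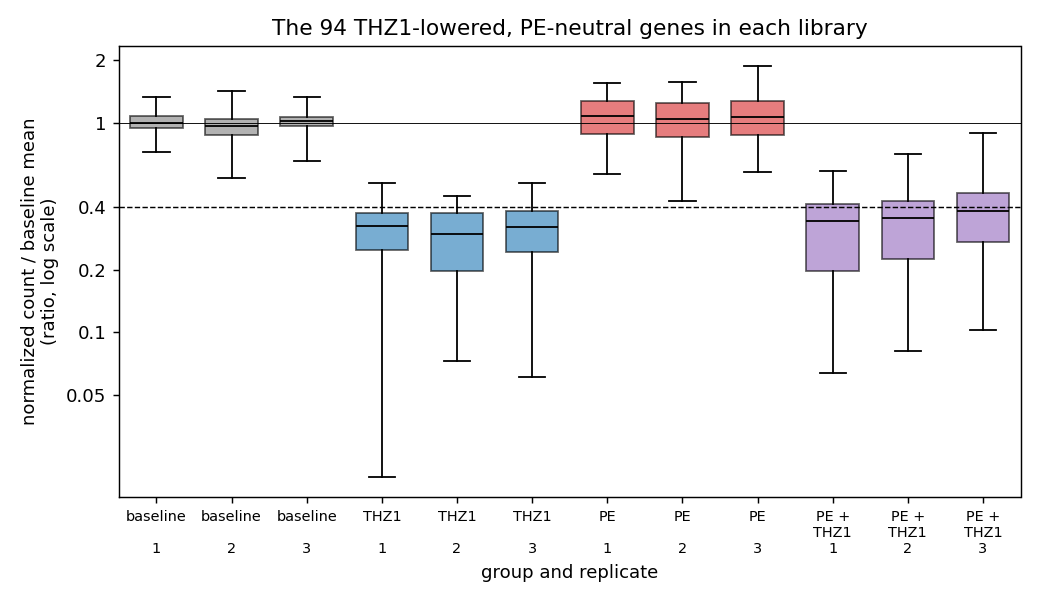
Normalized count of each of the 94 genes divided by its baseline mean (vertical axis, ratio, log scale) in the 12 libraries (horizontal axis, group and replicate). Boxes span the quartiles with a line at the median, whiskers span the full range, the dashed line marks 0.4 and the solid line 1; the medians of the PE + THZ1 libraries, 0.343 to 0.380, lie beside those of the THZ1 libraries, 0.294 to 0.324, while those of the PE libraries lie at 1.05 to 1.08.

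The ratio of THZ1 over baseline that chose the genes ran from 0.0772 to 0.399 with a median of 0.313 and quartiles of 0.235 and 0.366, and 25 of the 94 genes were at or under 0.25. In all 94 genes the 3 THZ1 libraries lay below the 3 baseline libraries (28.4% of all genes with a mean of at least 20), which the choice of genes nearly fixes and from which nothing is read. To read this fall in libraries that had not been used for the choice, the 3 limits were applied with 1 baseline and 1 THZ1 library of the same replicate number left out, and the ratio was taken in the left-out pair. The choice without replicates 1, 2 and 3 gave 99, 103 and 95 genes, whose median ratio in the left-out libraries was 0.335, 0.343 and 0.343. The ratio was at most 0.4 in 79 (79.8%), 72 (69.9%) and 73 (76.8%) of them, against 1.87%, 1.99% and 1.88% of all genes in the same pairs. Every gene so chosen stayed below 1 in its left-out pair, the highest at 0.815, 0.590 and 0.858. The share of all genes below 1 in these pairs was not computed. The median log2 difference of all tested genes between THZ1 and baseline was −0.00054 over the full groups.

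The fall held when PE was present. In PE + THZ1 all 94 genes were lower than in PE (limma with a mean-variance trend on log2 of the normalized count plus 1, Benjamini-Hochberg adjusted p under 0.05 over 15902 genes), and the largest adjusted p by limma was 0.0301. The background is a share of 28.4% of all tested genes called lower in this comparison, and 32.4% of those with a mean of at least 20. The median log2 difference of the 94 genes was −1.66, with a range of −3.51 to −0.54 and a median standard error of 0.13, and that of all tested genes was 0.01. Because the PE libraries enter the choice through the window on PE over baseline, the genes were also chosen with 1 PE library and compared in the other PE libraries alone, where 95 of 96, 85 of 85 and 84 of 86 genes were called lower by limma with median log2 differences of −1.63, −1.73 and −1.58. With baseline replicate 2 left out, the limits gave 100 genes, 87 of them among the 94, and limma called all 100 lower in PE + THZ1 than in PE. With all libraries set to equal totals, 91 of the 94 genes were called lower. The share of all tested genes called lower was computed for the main fit only, so these alternative counts have no background of their own. Genes called in either direction came to 10175 with equal totals and 9573 without baseline replicate 2, against 8975 in the main fit.

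As ratios of group means, PE + THZ1 over PE ran from 0.0852 to 0.678 in the 94 genes with a median of 0.316 and quartiles of 0.216 and 0.406. The limit of 0.4 that defined the fall without PE was also met with PE by 69 genes (73.4%), against 2.86% of all genes with a mean of at least 20. The other 25 lay above it. In all 94 genes the 3 PE + THZ1 libraries lay below the 3 PE libraries, which held for 36.4% of all genes with a mean of at least 20. Each PE + THZ1 library gave a like result when set against the PE mean, with medians of 0.328, 0.312 and 0.354.

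ENSRNOG00000011145, the gene with the lowest ratio of THZ1 over baseline, had 259, 226 and 256 normalized counts at baseline and 23.9, 18.0 and 15.2 with THZ1. It had 239, 246 and 234 with PE and 15.8, 20.2 and 25.4 with PE + THZ1. Both groups with THZ1 lay far below both groups without it, and the PE and baseline values overlapped. The ratio was 0.0772 without PE and 0.0852 with it, and the log2 difference between PE + THZ1 and PE was −3.51 (SE 0.18, adjusted p by limma 8.58e-12).

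ENSRNOG00000030848, the most abundant of the 94 genes at baseline, had 25604, 18523 and 35360 normalized counts at baseline and 5204, 5198 and 6169 with THZ1. It had 28518, 36525 and 40291 with PE and 3552, 4418 and 6183 with PE + THZ1. The baseline and PE libraries varied widely and overlapped, but none of them came near any library with THZ1. The ratio was 0.208 without PE and 0.134 with it, and the log2 difference between PE + THZ1 and PE was −2.92 (SE 0.19, adjusted p by limma 3.05e-10). The 5 other genes above 10000 at baseline had ratios of PE + THZ1 over PE of 0.264, 0.234, 0.392, 0.376 and 0.370, all within the limit of 0.4.

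The gene whose PE mean was nearest to its baseline mean gives the plainest view of the pattern. It had 1238, 1377 and 1291 normalized counts at baseline and 1349, 1237 and 1298 with PE. With THZ1 it had 418, 478 and 495, and with PE + THZ1 484, 463 and 500. The ratios were 0.356 without PE and 0.372 with it, and the 2 groups with THZ1 overlapped.

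The weakest fall in the presence of PE belonged to a gene with 163, 169 and 252 normalized counts with PE and 107, 149 and 140 with PE + THZ1, a ratio of 0.678 (adjusted p by limma 0.0230). Its baseline values were 341, 195 and 319 and its THZ1 values 96.9, 118 and 116, so the groups with THZ1 overlapped and its PE values lay below most of the baseline values. Baseline replicate 2, the library that stood apart, held the lowest of its baseline values.

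**Figure D2:**
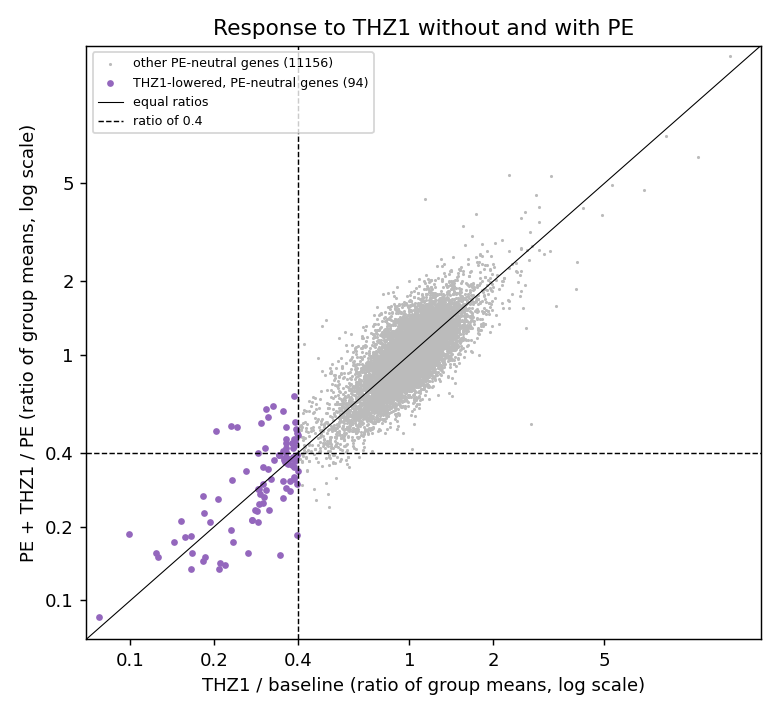
Ratio of group means of THZ1 over baseline (horizontal axis, log scale) against PE + THZ1 over PE (vertical axis, log scale) for the 94 genes (purple) and the other 11156 genes in the same PE window (grey), with the line of equal ratios and dashed lines at 0.4. All purple points lie below a ratio of 1 on the vertical axis and 69 of the 94 lie at or under 0.4.

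The size of the fall with and without PE ran in parallel across the 94 genes, with a Pearson r of 0.70 and a Spearman rho of 0.62 between the 2 log2 ratios, a description across genes that share libraries and are not independent. Across all 11250 genes in the PE window the median ratio of PE + THZ1 over PE followed the bins of THZ1 over baseline: it was 0.182 in the 25 genes at or under 0.25, 0.362 in the 69 between 0.25 and 0.4, 0.475 in the 109 between 0.4 and 0.5 and 0.557 in the 252 between 0.5 and 0.6. It was 0.919 in the 3559 genes between 0.8 and 1. The limit of 0.4 therefore cuts a graded series and does not separate the 94 genes from their neighbours. The 3 genes just inside it had THZ1 over baseline of 0.397, 0.397 and 0.399 and PE + THZ1 over PE of 0.479, 0.335 and 0.470, and the 3 just outside it had 0.4002, 0.4003 and 0.405 and 0.429, 0.658 and 0.514.

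Applied the other way round, the limit of 0.4 on PE + THZ1 over PE was met by 111 genes of the PE window. Of these, 69 were among the 94, which is 62.2% of the 111 and 73.4% of the 94. The remaining genes had a median THZ1 over baseline of 0.507 and none exceeded 0.658, so they too were lower with THZ1 alone.

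The medians lay close together across the range of abundance. With the 94 genes split by baseline level into 31, 31 and 32 genes, the median PE + THZ1 over PE was 0.309 in the least abundant (baseline means of 26.5 to 139), 0.312 in the middle set and 0.343 in the most abundant (713 to 26495). The limit of 0.4 was met by 21 of 31, 19 of 31 and 29 of 32 genes, and the highest ratio was 0.622, 0.678 and 0.501.

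Against baseline instead of PE, the PE + THZ1 level had a median ratio of 0.352 over the 94 genes. By limma 93 of them were called lower than baseline (adjusted p under 0.05, background 24.9%), and 56 were at or under 0.4 (background 1.48%). This comparison shares the baseline libraries with the choice of genes and is given as a description. The single gene not called had 52.7, 83.0 and 54.9 normalized counts at baseline and 16.0, 25.5 and 17.0 with THZ1. With PE it had 67.7, 79.2 and 84.3, and with PE + THZ1 37.4, 45.2 and 56.8. Its PE + THZ1 values overlapped the baseline values (log2 difference −0.43, adjusted p by limma 0.112) and lay below all PE values.

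Set against THZ1 alone, PE + THZ1 gave a median ratio of 1.08 with quartiles of 0.926 and 1.27 and a range of 0.444 to 3.01. Of the 94 genes, 57 lay between 0.8 and its reciprocal. The level was above that of THZ1 alone in 60 genes and below it in 34. The shares of all genes for these counts were not computed. In all genes with a mean of at least 20, the log2 difference had quartiles of −0.12 and 0.12. The 57 genes therefore show no closeness to THZ1 alone that is particular to the set. By limma 22 genes were called higher (background 11.2%) and 8 lower (background 10.2%) at an adjusted p under 0.05. The THZ1 libraries also served to choose the genes for low values, so these counts are descriptions.

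The interaction asks whether the log2 difference with THZ1 was of another size when PE was present, and is likewise a description here because 3 of its 4 groups chose the genes. By limma 20 of the 94 genes had an interaction at an adjusted p under 0.05, against a background of 28.4% of all tested genes. In 11 genes it was positive, a smaller fall with PE, with values of 0.33 to 1.23 and a median of 0.84 (background 12.4%). In 9 genes it was negative, a larger fall with PE, with values of −1.18 to −0.19 and a median of −0.35 (background 16.1%). Over all 94 genes the median interaction was 0.07, and over all tested genes −0.01. Of the 20 genes, 10 were called higher and 3 lower in PE + THZ1 than in THZ1 alone, and 7 were not called.

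ENSRNOG00000018551 had the largest positive interaction, with 171, 209 and 224 normalized counts at baseline and 46.7, 36.8 and 38.5 with THZ1. It had 256, 278 and 220 with PE and 94.5, 133 and 140 with PE + THZ1. All PE + THZ1 values lay between the THZ1 values and the baseline values, 3.01-fold above THZ1 alone by the ratio of means. The ratio of PE + THZ1 over PE was 0.488 where that of THZ1 over baseline was 0.202, with a log2 difference of −1.04 between PE + THZ1 and PE (SE 0.15, adjusted p by limma 1.31e-05) and an interaction of 1.23 (SE 0.22, adjusted p by limma 0.000360).

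ENSRNOG00000045551 was likewise higher with both compounds than with THZ1 alone, from a fall without PE of like size. It had 418, 603 and 477 normalized counts at baseline and 124, 96.9 and 123 with THZ1. It had 515, 438 and 347 with PE and 202, 213 and 253 with PE + THZ1. The PE values overlapped those of baseline, and the PE + THZ1 values lay above all THZ1 values. The ratios were 0.229 without PE and 0.513 with it, with a log2 difference of −0.95 between PE + THZ1 and PE (SE 0.15, adjusted p by limma 2.25e-05) and an interaction of 1.16 (SE 0.21, adjusted p by limma 0.000406).

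**Figure D3:**
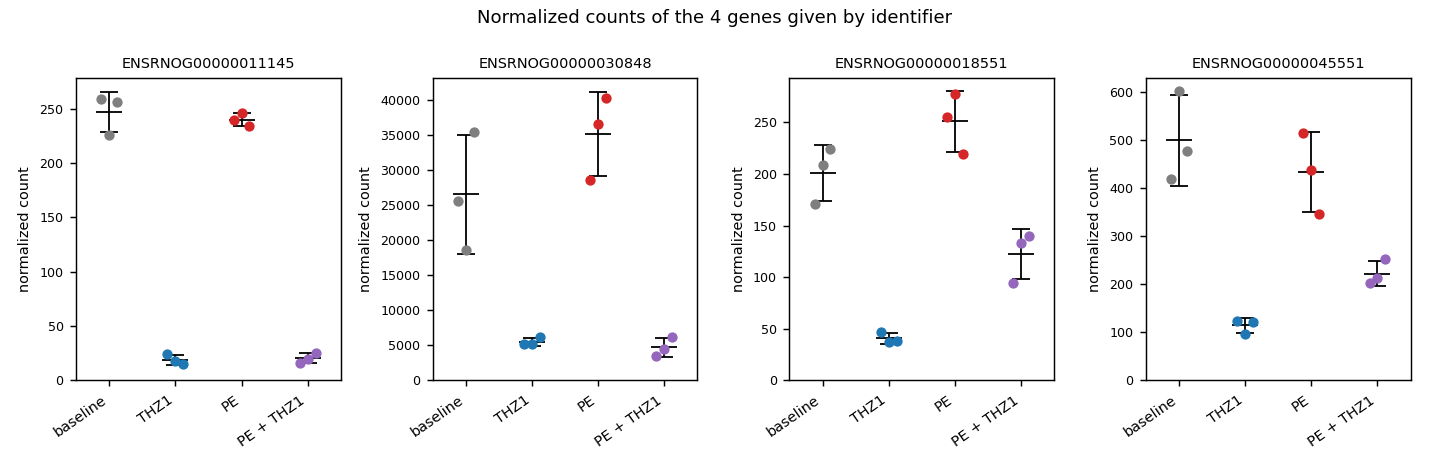
Normalized counts (vertical axes, from 0, a scale for each panel) of the 4 genes given by identifier in each library of the 4 groups (horizontal axes); points are libraries, and bars give the mean and SD of 3 libraries. In the 2 panels on the left PE + THZ1 overlaps THZ1 alone, and in the 2 on the right all PE + THZ1 libraries lie above those of THZ1 alone and below those of PE. The 2 genes on the right were picked among those called higher in PE + THZ1 than in THZ1 alone, so that order is part of the choice.

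The opposite case was a gene with 2865, 3184 and 2840 normalized counts at baseline and 1053, 981 and 1017 with THZ1. It had 4548, 4124 and 4107 with PE and 550, 662 and 736 with PE + THZ1. Its PE values lay above all baseline values, while with both compounds it lay below every THZ1 library, with a log2 difference of −2.72 between PE + THZ1 and PE (SE 0.08) and an interaction of −1.18 (adjusted p by limma 7.19e-07). The gene with the lowest level relative to THZ1 alone, at a ratio of 0.444, had 38.7, 29.3 and 45.6 normalized counts with THZ1 and 10.8, 18.3 and 21.3 with PE + THZ1. Its groups did not overlap either (log2 difference −1.15, adjusted p by limma 0.000765).

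**Figure D4:**
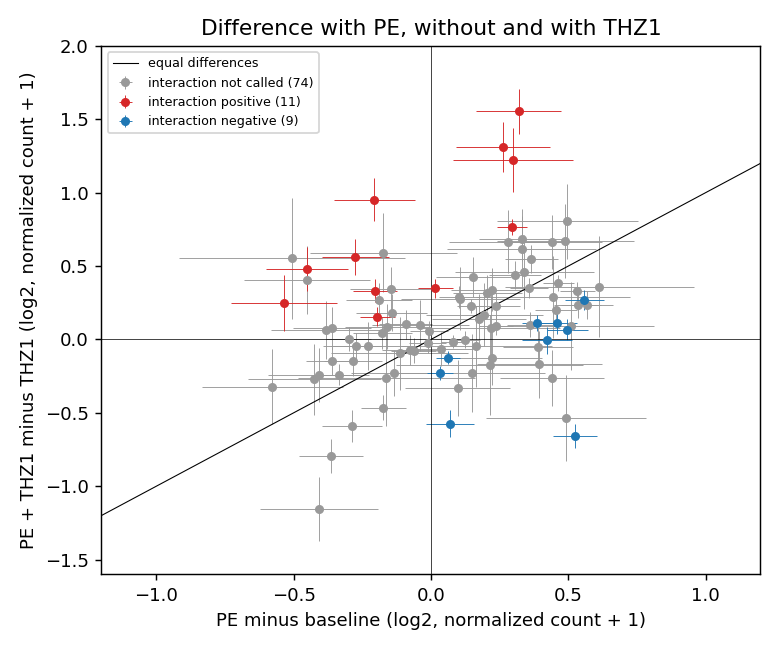
Log2 difference between PE and baseline (horizontal axis) against that between PE + THZ1 and THZ1 alone (vertical axis) for the 94 genes, on log2 of the normalized count plus 1; bars are standard errors from limma and the line marks equal differences. The distance from the line is the interaction, called positive in 11 genes (red) and negative in 9 (blue), with 74 genes not called (grey).

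Neutral to PE denotes a window on the ratio of group means. The ratio of PE over baseline ran from 0.683 to 1.49 in the 94 genes with a median of 1.08, above 1 in 56 and below 1 in 38. As a description, since these libraries chose the genes, limma called 32 of the 94 different at an adjusted p under 0.05, 20 higher and 12 lower. The background for this comparison is 50.3% of all tested genes in either direction, 27.3% higher and 23.0% lower. The authors' clusters, built from the same libraries and numbered as in the deposited table, held the genes as follows: 42 lay in cluster 2, which holds 23.5% of all genes, 52 in cluster 3, which holds 14.8%, and 0 in the other clusters. These deposited numbers need not match those of the paper, which describes its cluster 2 as genes whose fall with PE was attenuated by THZ1. The paper describes its clusters 1 and 3 as genes with a baseline level altered by THZ1. Its cluster 5 is described as genes that PE induced and THZ1 suppressed. Whether the numberings correspond was not tested. The 42 genes of deposited cluster 2 had a median PE over baseline of 1.28, PE + THZ1 over PE of 0.308 and PE + THZ1 over THZ1 of 1.19. The cluster 3 genes had 0.920, 0.353 and 0.981 for the same ratios, and their PE over baseline values overlapped, from 0.863 to 1.49 in cluster 2 and from 0.683 to 1.33 in cluster 3. The limit of 0.4 on PE + THZ1 over PE was met by 32 of 42 and 37 of 52 genes. The clusters and the choice of genes rest on the same libraries, so these medians and counts are descriptions of each cluster and not a contrast between them.

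The same limit of 0.4 on THZ1 over baseline was met by 229 genes in all, which differ in their response to PE. The 106 genes above the PE window had a median PE + THZ1 over PE of 0.208 and ended at 0.469 of baseline, the 94 PE-neutral genes had 0.316 and ended at 0.352, and the 29 below the window had 0.534 and ended at 0.244. Limma called 106 of 106, 94 of 94 and 18 of 29 lower in PE + THZ1 than in PE (background 28.4%). The split by PE response sets part of this order, since PE is the denominator, so no test was made between the sets.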

How the data were processed

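RNA-seq was made from 12 NRVM libraries in 4 groups of 3. Per the methods of the authors, single-end reads were mapped to rn5 by TopHat (version 2.1.1), counted by gene in HTSeq and divided by DESeq2 size factors. The deposited values are this normalized signal per gene, and an unnamed deposited column gives the authors' cluster. Whole reads were recovered from the steps of each library (tolerance 0.01 read) for 100% of values. As the unit was a signal and not raw counts, the main test was limma (version 3.58.1, R 4.3.3, trend, two-sided) on log2(normalized count + 1) over all 12 libraries without covariates, for the 15902 genes with a mean of at least 2, with Benjamini-Hochberg adjustment and a threshold of 0.05. edgeR (version 4.0.16) and DESeq2 (version 1.42.0) on the recovered reads were alternatives, calling 8930 and 8313 genes against 8975 by limma between PE + THZ1 and PE. The limma fit was tested on simulated data, and the edgeR and DESeq2 fits were not. Ratios are of group means without pseudocount. The genes and lists were chosen with earlier results of these data known. Of the planned names (largest falls, highest levels, strongest interactions, list members), 4 identifiers are printed as no symbols were matched: the lowest ratio of THZ1 over baseline, the highest baseline level and the largest positive interactions. The last were taken among genes also called higher in PE + THZ1 than in THZ1 alone. Genes without identifier were singled out after their values were seen. The planned gene, marker and sequence lists could not be matched to the Ensembl identifiers and were not run. No spike-in is stated in the sources used here.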

Additional observations from a re-analysis of the deposited data

Results flagged for a closer look

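An interaction of PE and THZ1 was called in 20 of the 94 genes (limma, adjusted p under 0.05), 11 positive and 9 negative. This share lies below the 28.4% of all tested genes, and 3 of the 4 groups chose the genes, so the count is a description and says nothing particular about them. The interactions of the genes given by identifier and past a log2 value of 1 were 1.23 for ENSRNOG00000018551 and 1.16 for ENSRNOG00000045551, both a smaller fall with PE present. A gene without identifier here had −1.18 (adjusted p by limma 7.19e-07, the smallest of the 20), a larger fall with PE present.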

How the results depend on the processing

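The number of genes moved with the limits that define them: 41 with a limit of 0.3 on THZ1 over baseline, 203 with 0.5, and 57 with a PE window from 0.8 to its reciprocal. The genes at or under 0.4 in PE + THZ1 over PE came to 37 of 41 at a limit of 0.3, 88 of 203 at 0.5, 38 of 57 in the narrower window and 45 of 66 with equal totals. Equal totals left 66 genes, 61 of them shared with the 94, and 64 were called lower in PE + THZ1 than in PE. Of the original 94, 91 were called lower under equal totals. The share of all tested genes called lower was not computed for any alternative in this section. Nor was the share with an interaction or called against THZ1 alone. In the main fit 28.4% of all tested genes had an interaction. Against THZ1 alone 11.2% were called higher and 10.2% lower. A pseudocount of 5 moved the median log2 difference between PE + THZ1 and PE to −1.56. Leaving out 1 library at a time gave 88 to 100 genes, 87 to 100 called lower, 63 to 72 at or under 0.4, medians of −1.70 to −1.52, 15 to 27 interactions and 26 to 37 genes called against THZ1 alone; without baseline replicate 2, 100 genes (87 shared) were chosen and 100 called lower. With the replicate number as a block, limma called 94 genes lower, 22 interactions and 32 genes against THZ1 alone; the correlation of deviations was over 0.1 in 5 of 18 same-numbered pairs (mean r of 0.0446 against −0.0227 for other pairs), and as the labels tie the numbers to nothing shared, the number is not taken as a pairing, although 8 of 12 libraries correlated best with their own number, a hint from the data. edgeR and DESeq2 both called 94 of 94 lower. The other alternatives moved no count by over 1.5 times, and the 72 values of the 4 identifiers kept sign and side of the threshold.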
